A study of Mus musculus with 2 samples.

Results

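A set of 8 genes that mark neuroectoderm were examined in Dicer_KO mouse embryonic stem cells (mESCs). They were chosen by name and looked up by gene symbol, and all 8 were among the 43629 genes listed. The 2 libraries were made from polyA RNA of mESCs of 129/Ola background with the genotype Dicer knockout, and differed in culture age, replicate 1 being at passage 7 and replicate 2 at passage 4. The study derived its mutants from the E14TG2a line by cutting Dicer1, which encodes the ribonuclease that matures microRNAs, with pairs of Cas9 guides, sorting single cells and keeping clones of 2 different deletions. The labels give the tissue as blastocyst, from which such lines derive, and name no deletion for either library, so clone, passage and library cannot be told apart. The mutants were kept in serum with the cytokine LIF, which holds mESCs undifferentiated. WT libraries were not analysed here. Every value is therefore a level in Dicer_KO mESCs or a difference between the 2 libraries, and nothing is said of a change against WT cells.

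Neuroectoderm is the part of the embryonic ectoderm that forms the neural plate and then the brain and spinal cord. Pluripotent cells that leave self-renewal without BMP or Nodal signals adopt this fate by default. The SoxB1 factor Sox1 is among the earliest genes confined to neural plate cells. Pax6, Pax3 and Zic1 then mark territories of the plate, Nes encodes the intermediate filament nestin of neural stem cells, Neurog2 starts neuronal differentiation, and Sox11 and Tubb3 (the βIII-tubulin of neurons) come up as progenitors become neurons. mESCs kept with LIF are known to hold many such genes at low levels, and bulk RNA cannot tell a few cells with many transcripts from many cells with few.

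The libraries held 41710122 and 41566184 counts on genes. Dicer1 had 1343 counts in replicate 1 and 1510 in replicate 2, or 32.2 and 36.3 counts per M counts on genes (CPM, M standing for mega). Without WT libraries this does not check the deletion, since reads on remaining exons can still be counted, which was not examined by exon. The study checked its deletions by PCR and the absence of DICER protein by immunoblot. It also reported loss of Dicer mRNA from its RNA sequencing, and the counts here cannot be set against that without WT libraries. Pluripotency markers were abundant. All 10 of the pluripotency markers listed had at least 1 CPM in both libraries, with a median of 174.7 counts per kilobase of exon and M counts (RPKM). Over protein-coding genes the share with at least 1 CPM in both was 57.1%. Pou5f1, the core factor also known as Oct4, had 417 RPKM in replicate 1 and 460 in replicate 2. The libraries stood apart on chromosome 15, where 683 genes had a median log2 ratio of replicate 1 over replicate 2 of 0.59, whereas every other autosome had a median from -0.08 to 0.08. None of the 8 markers lies on chromosome 15 (0 of 8).

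Of the 8 markers, 5 had at least 1 CPM in both libraries: Nes, Tubb3, Sox11, Pax6 and Sox1. The other 3, Pax3, Zic1 and Neurog2, were under 1 CPM in both. Over all listed genes 31.7% had at least 1 CPM in both libraries, and over protein-coding genes 57.1%, so that 5 of 8 was close to the share among protein-coding genes. Among these 8, the progenitor filament gene Nes and the early neuron markers Tubb3 and Sox11 were the most abundant. The neural plate factors Pax6 and Sox1 were low, and Pax3, Zic1 and Neurog2 were the lowest.

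**Figure D1:**
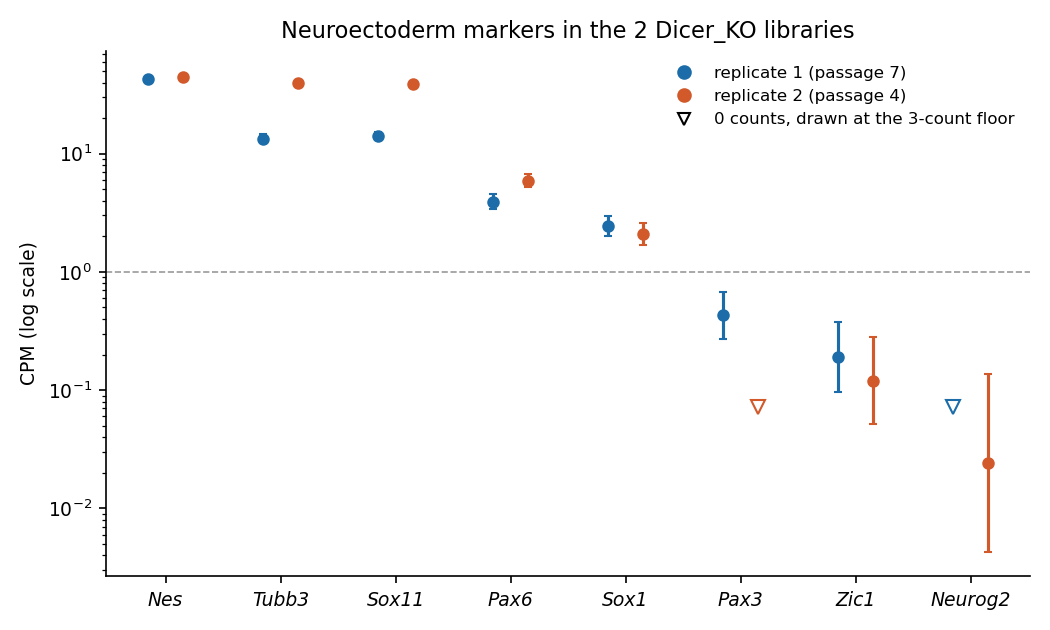
Level of each neuroectoderm marker in CPM (y axis, log scale) in replicate 1 (blue) and replicate 2 (orange) of Dicer_KO mESCs, with 95% Wilson intervals of the counts. Open triangles mark 0 counts, drawn at the level of 3 counts, and the dashed line marks 1 CPM. The points of Nes and Sox1 lie side by side, those of Tubb3 and Sox11 are apart, and Pax3, Zic1 and Neurog2 lie under the line.

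Nes (ENSMUSG00000004891, chr3:87971078-87980451 of GRCm38, plus strand) had 1771 counts in replicate 1 and 1852 in replicate 2. These were 42.5 CPM (95% Wilson interval 40.5 to 44.5) and 44.6 CPM (42.6 to 46.6), so the intervals overlapped. Per length, nestin mRNA stood at 6.78 ± 0.23 RPKM (SD, n = 2), above 83.2% of the listed genes with an annotated length. That rank includes silent genes, as 17776 of the 43629 listed genes had 0 counts in both libraries. After scaling by the TMM method of edgeR, which sets the libraries to a common level over most genes, its log2 ratio (replicate 1 over replicate 2) came to -0.19, with a 95% interval of -0.28 to -0.09 for counting error. Scaled by total counts it was -0.07.

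The study assayed Nes and Pax6 by RT-qPCR, and its primers show which part of each mRNA that assay reads, in contrast to the counts over all exons used here. The primers matched the GENCODE M21 transcripts over their whole length.
Nes forward: ctcttcccccttgcctaatacc
Nes reverse: tttaggatagggagcctcagacat
Pax6 forward: taacggagaagactcggatgaagc
Pax6 reverse: cgggcaaacacatctggataatgg
The Nes primers lie in the coding part of exon 4, at chr3:87975506-87975527 and chr3:87975615-87975638, and bound a product of 133 nt within that single exon. The Pax6 primers lie in the coding part of 2 neighbouring exons, at chr2:105691617-105691640 and chr2:105692207-105692230, and bound a product of 144 nt from spliced mRNA. In the Pax6 transcript of 2601 nt these are exons 8 and 9 of 13.

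Pax6 (ENSMUSG00000027168, chr2:105668900-105697364, plus strand), a paired-box factor of the neural plate, forebrain and eye, had 164 counts in replicate 1 and 246 in replicate 2. Its levels were 3.93 CPM (3.37 to 4.58) and 5.92 CPM (5.22 to 6.71). The intervals did not overlap, and replicate 2 was the higher by 1.63-fold after scaling, with a log2 ratio of -0.70 (counting interval -1.0 to -0.42). That was under the 2-fold mark, and 67.5% of the 17788 genes that averaged 10 or more counts lay nearer to 0. Per length Pax6 was low, at 0.42 ± 0.12 RPKM (SD, n = 2). This value depends on the length used. All annotated Pax6 exons add up to 11694 nt, while its longest transcript has 4427 nt, which would put it at 1.11 RPKM. The antisense gene Pax6os1, which overlaps the locus but no exon of Pax6, had 0 counts in both libraries.

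Sox1 (ENSMUSG00000096014, chr8:12395295-12400126, plus strand) is a single-exon gene of the SoxB1 group and one of the first markers of neural commitment. It had 101 counts in replicate 1 and 87 in replicate 2, or 2.42 CPM (1.99 to 2.94) and 2.09 CPM (1.70 to 2.58). The libraries could not be told apart at this depth, with a log2 ratio of 0.09 and a counting interval of -0.33 to 0.52. The noncoding gene Sox1ot, which spans Sox1 on the same strand without sharing its exon, had 2 counts in replicate 1 and 14 in replicate 2. A small annotated miRNA gene, Gm25239, covers 86 nt of the Sox1 exon (1.78% of it). Reads confined to those bases may have been left out by the rule on overlapping regions, and Gm25239 itself had 0 counts in both libraries.

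Tubb3 and Sox11, the markers of early neurons, were the only ones of the 5 abundant markers beyond 2-fold between the libraries, and both were higher in replicate 2. Tubb3 (ENSMUSG00000062380, chr8:123411424-123422015, plus strand) had 559 counts in replicate 1 and 1653 in replicate 2. This was 13.4 CPM (12.3 to 14.6) against 39.8 CPM (37.9 to 41.7). After scaling, replicate 2 was 3.21-fold higher, a log2 ratio of -1.68 with a counting interval of -1.83 to -1.55. Sox11 (ENSMUSG00000063632, chr12:27334264-27342574, minus strand), a SoxC factor with a single exon that acts in newly born neurons, had 585 counts in replicate 1 and 1614 in replicate 2. This was 14.0 CPM (12.9 to 15.2) against 38.8 CPM (37.0 to 40.8). Replicate 2 was 3.0-fold higher, with a log2 ratio of -1.58 and a counting interval of -1.73 to -1.45. Their folds were thus close to each other, and the intervals of the 2 log2 ratios overlapped.

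These 2 were among the 5 markers that averaged 10 or more counts. Of all 17788 such genes, 21.4% were beyond 2-fold in either direction, 14.2% with replicate 1 higher and 7.14% with replicate 2 higher. Genes of few counts make up much of these shares. Tubb3 and Sox11 averaged 1106 and 1099.5 counts, near the lower edge of the 6640 genes with a mean of 1000 to 10000 counts. Of these 6640 genes 7.17% were beyond 2-fold, against 23.6% of the 5604 genes with a mean of 100 to 1000 counts. The log2 ratio of Tubb3 was farther from 0 than that of 95.2% of the 13005 genes that averaged 100 or more counts, and that of Sox11 was farther than in 94.5%. Of those 13005 genes, 14.0% were beyond 2-fold, 9.93% with replicate 1 higher and 4.11% with replicate 2 higher. With 1 library at each passage the difference has no replicate check, and no p-value was computed.

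**Figure D2:**
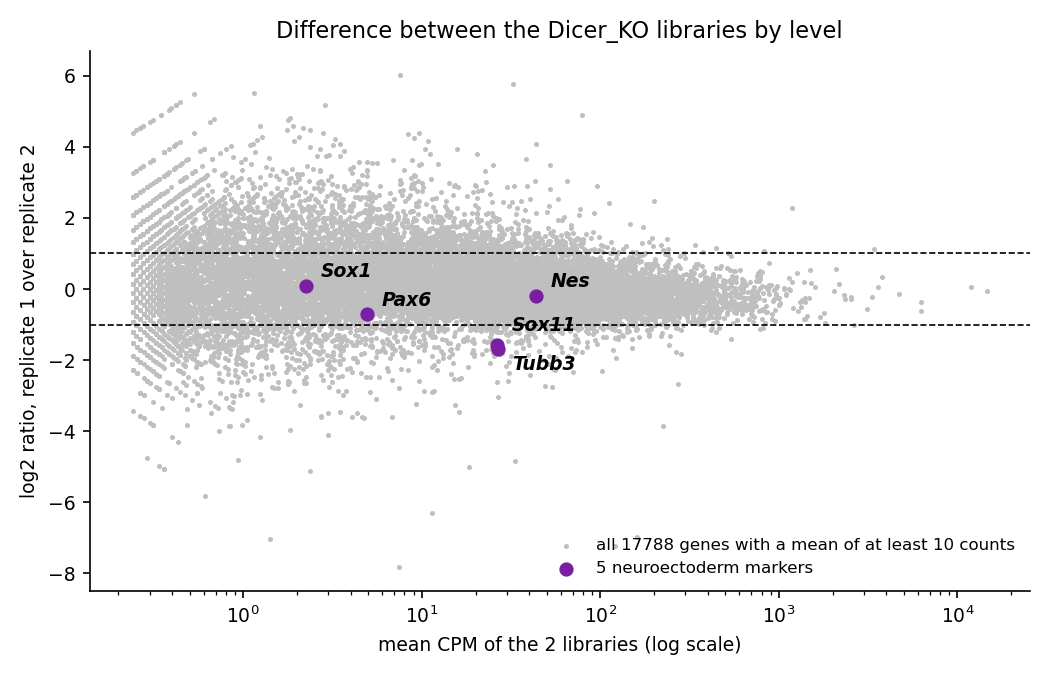
Log2 ratio of replicate 1 over replicate 2 (y axis, after TMM scaling) against the mean CPM of both libraries (x axis, log scale) for the 17788 genes averaging 10 or more counts (grey) and the 5 neuroectoderm markers among them (purple). The dashed lines mark 2-fold. Tubb3 and Sox11 lie under the lower line at -1.68 and -1.58, while Nes, Pax6 and Sox1 lie between the lines.

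The other 3 markers had too few counts for a ratio under the filter. Pax3 (ENSMUSG00000004872, chr1:78101267-78197134, minus strand), a paired-box factor of the dorsal neural tube and neural crest, had 18 counts in replicate 1 and 0 in replicate 2. The level in replicate 1 was 0.43 CPM (0.27 to 0.68), and 0 counts in replicate 2 allow up to 0.0722 CPM (3 counts). Set against that floor of 3 counts in replicate 2, Pax3 was at least 5.51-fold higher in replicate 1, a bound that leaves out the counting error of the 18 counts. The counting interval of its log2 ratio had a lower limit of 2.01. Zic1 (ENSMUSG00000032368, chr9:91358058-91365810, minus strand), a zinc finger factor of the dorsal neural tube and cerebellum, had 8 counts in replicate 1 and 5 in replicate 2, a difference not detectable at this depth. Zic4, which overlaps it on the other strand and shares 60 nt of its exons, had 0 counts and 1 count. Neurog2 (ENSMUSG00000027967, chr3:127633135-127635631, plus strand), the proneural factor of the bHLH class, had 0 counts in replicate 1 and 1 count in replicate 2, both under the floor of 3 counts.

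Per length, the order of the 8 markers by mean RPKM was Tubb3 (14.2 ± 9.98), Nes (6.78 ± 0.23), Sox11 (3.18 ± 2.11), Sox1 (0.47 ± 0.048), Pax6 (0.42 ± 0.12), Pax3 (0.035 ± 0.049), Zic1 (0.027 ± 0.0089) and Neurog2 (0.0054 ± 0.0076; SD, n = 2 for each). The levels of Sox1 and Pax6 overlapped between the libraries, Sox1 being the higher in replicate 1 and Pax6 in replicate 2. The levels of Pax3 and Zic1 overlapped as well. By the length of its longest transcript Pax6 would be at 1.11 RPKM, above Sox1, which has 0.47 by either length. Between Tubb3 and Nes the distance lay mostly in replicate 2. Tubb3 was 1.08 times Nes in replicate 1 and 3.07 times Nes in replicate 2. Sox11 in turn was 3.37 times Sox1 in replicate 1 and 10.8 times Sox1 in replicate 2.

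Each marker was then set beside genes of its own family, since close relatives differ in whether pluripotent cells use them. In the SoxB1 group, Sox2, a core pluripotency factor, had 309 RPKM in replicate 1 and 250 in replicate 2. Its neural relatives Sox1 (0.50 and 0.43 RPKM) and Sox3 (0.93 and 0.79 RPKM) were far lower, so Sox2 held 99.5% of the RPKM of the 3 genes in both libraries. Zic1 was also far below its relatives Zic2 and Zic5. Zic2, a factor of the neural plate, had 13.1 RPKM in replicate 1 and 21.8 in replicate 2, and its neighbour Zic5 had 9.65 and 14.9. Zic1 had 0.034 and 0.021 RPKM. Zic2 and Zic5 were both higher in replicate 2, with log2 ratios of -0.85 and -0.74.

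In the SoxC group, Sox11 was not alone in its difference between the libraries. Sox4 had 2.04 RPKM in replicate 1 and 5.07 in replicate 2, a log2 ratio of -1.43, beside -1.58 for Sox11. Sox12, the third gene of the group, had 13.2 and 16.5 RPKM and a log2 ratio of -0.43. The share of Sox11 in the RPKM of the group was 9.95% in replicate 1 and 17.8% in replicate 2.

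Among the Pax genes listed, Pax6, Pax7 and Pax8 were of like level by summed exon length, at 0.42 ± 0.12, 0.51 ± 0.083 and 0.40 ± 0.057 RPKM (SD, n = 2). The likeness depends on that length, since Pax6 would be at 1.11 RPKM by its longest transcript. Pax7, the dorsal partner of Pax3, had 139 counts in replicate 1 and 110 in replicate 2, so it did not share the pattern of Pax3 (18 and 0). Pax2 (3 and 1 counts) and Pax5 (7 and 3 counts) were near the floor. No neurogenin gene had more than 4 counts in a library.

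Tubb3 was a small part of the β-tubulin mRNA. It held 0.98% of the RPKM of 8 isotype genes in replicate 1 and 1.82% in replicate 2, while the ubiquitous isotypes Tubb5 and Tubb4b held most of it, Tubb5 45.8% and 45.0%. These too were higher in replicate 2. The log2 ratio was -0.77 for Tubb5, -0.94 for Tubb4b and -0.75 for the neural isotype Tubb2b, against -1.68 for Tubb3. Tubb2a (0.11) and Tubb6 (-0.07) had ratios near 0, and Tubb4a, with 88 and 26 counts, was higher in replicate 1 (1.60). Isotype genes have similar sequences, yet none of the 1867 distinct 50-mers of the Tubb3 transcripts occurred in transcripts of another gene. For Nes, Neurog2 and Sox11 it was also 0, and for Pax6, Pax3, Sox1 and Zic1 under 1% (0.44%, 0.27%, 0.77% and 0.72%). How the counting treated reads with several alignments was not stated.

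Nes was compared with genes of other intermediate filaments, a grouping made after their values were seen. Vim, whose product vimentin assembles with nestin, had 7.68 RPKM in replicate 1 and 35.2 in replicate 2 (log2 ratio -2.31). The neurofilament genes Nefl (4.39 and 27.2 RPKM, -2.75), Nefm (0.46 and 3.09, -2.86) and Nefh (6.60 and 14.5, -1.25) and the internexin gene Ina (6.94 and 16.6, -1.37) were higher in replicate 2 as well. Gfap, the filament gene of astrocytes, was higher in replicate 1 (0.34 and 0.091 RPKM, 1.73). Nes, with 6.62 and 6.94 RPKM, thus shared neither difference.

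**Figure D3:**
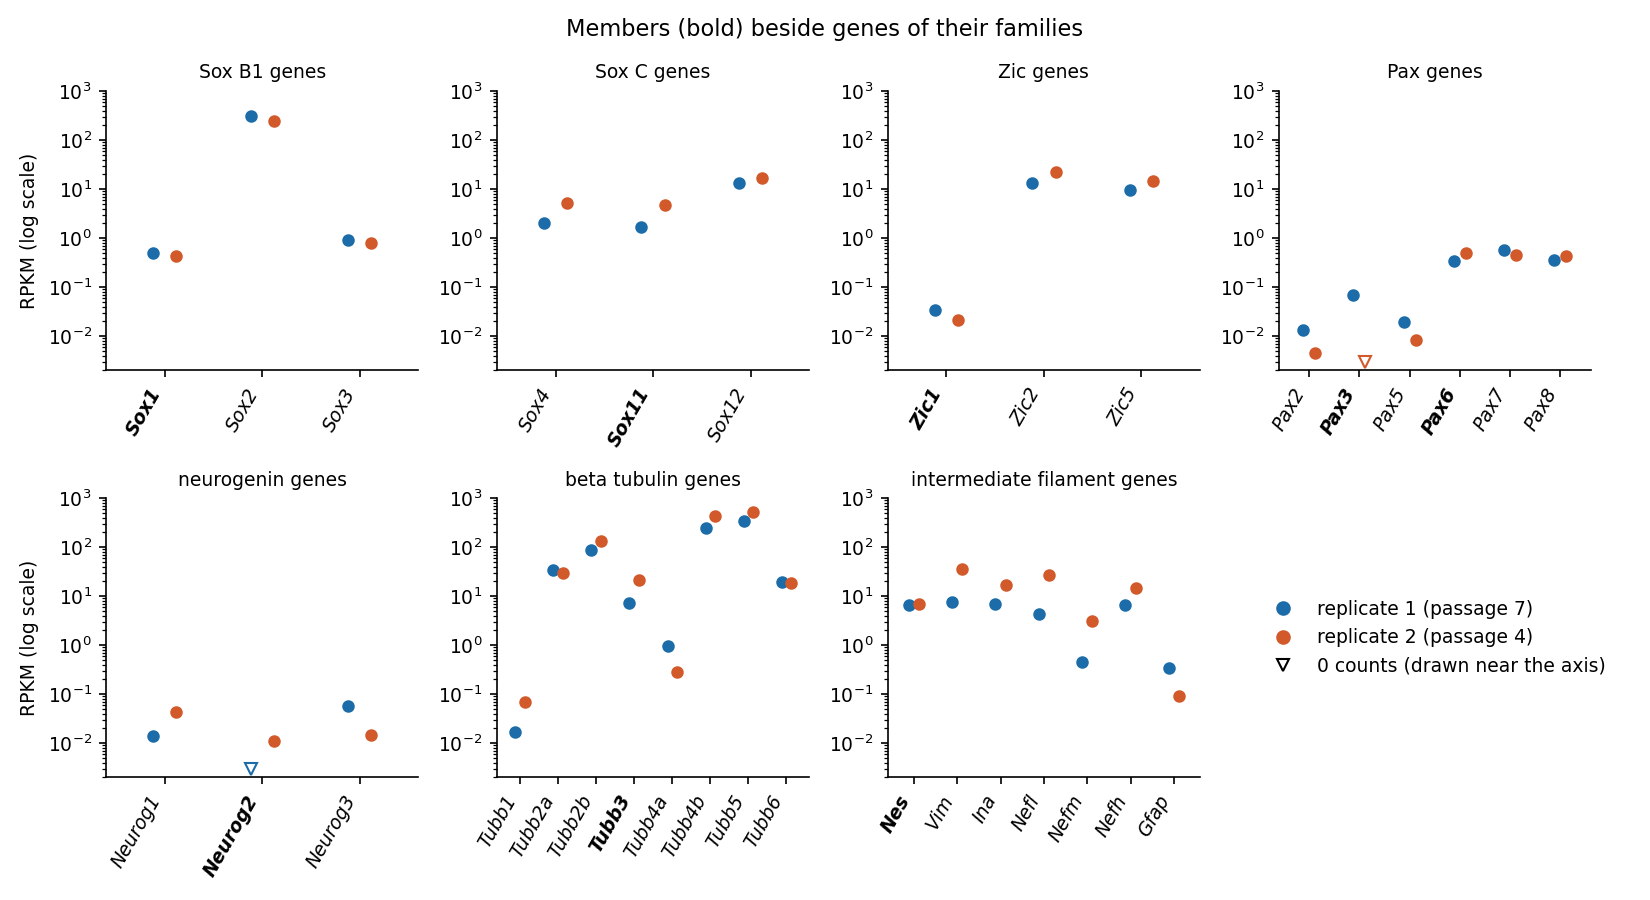
RPKM (y axis, log scale) of each neuroectoderm marker (bold) and of listed genes of its family in replicate 1 (blue) and replicate 2 (orange), with open triangles for 0 counts. Sox1 and Zic1 lie far under Sox2, Zic2 and Zic5, Sox11 and Sox4 shift alike between the libraries, and Nes keeps its level where Vim, Ina, Nefl, Nefm and Nefh are higher in replicate 2.

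Further genes of the neural program were taken from 7 lists with 99 genes in all, none of them a marker above. Of these, 55 had at least 1 CPM in both libraries, or 55.6%, near the 57.1% of all protein-coding genes. An average of 10 or more counts was reached by 77, of which 8 were more than 2-fold higher in replicate 1 and 17 more than 2-fold higher in replicate 2. Over all genes the lean was the other way, 14.2% against 7.14%. The median log2 ratio of the 77 genes was -0.26, and that of all 17788 genes was 0.02. The median of all genes varied with level, at 0.16 for means of 10 to 100 counts and -0.24 for means of 10000 or more. The lists were chosen with earlier results of these data known. They also hold proliferation genes, BMP targets and ubiquitous tubulins, so the lean describes these lists and was not tested. Without the 3 list genes on chromosome 15, 53 genes had at least 1 CPM in both libraries and 24 in place of 25 were beyond 2-fold, a setting chosen after seeing the data.

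Among early neural plate factors, 9 of 14 genes had at least 1 CPM in both libraries, with a median of 1.37 RPKM. That was 64.3%, beside 31.7% of all listed genes and 57.1% of protein-coding genes. Otx2, a factor of the forebrain and of primed pluripotent cells, had 2515 counts in replicate 1 and 5266 in replicate 2 (log2 ratio -1.19), and Gbx2, which sets the boundary of the hindbrain, had 60 and 280 (-2.33). Both were among the genes of the list more than 2-fold higher in replicate 2. Of the 12 genes averaging 10 or more counts, 3 were more than 2-fold higher in replicate 2 and 2 in replicate 1. Over all such genes the shares were 7.14% and 14.2%. The 2 higher in replicate 1 were Irx3 (26 and 4 counts) and Zfp521 (46 and 6), named after their values were seen.

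Of the regional and dorsal patterning factors, 6 of 20 had at least 1 CPM in both libraries, or 30.0% beside 31.7% of all listed genes and 57.1% of protein-coding genes. In both libraries 12 were under 1 CPM, 1 of them (Olig2) with 0 counts in both, and the median was 0.15 RPKM. The list was led by Foxd3, a factor of neural crest that mESCs also need (12.9 and 22.3 RPKM, log2 ratio -0.90), and by En2 (1.06 and 1.20). Tfap2a, a factor of neural crest and surface ectoderm, had 192 counts in replicate 1 and 34 in replicate 2 (log2 ratio 2.34). This is the direction of Pax3 but not of Foxd3. Named after their values were seen, Sox10, another neural crest factor, which lies on chromosome 15, had 116 and 11 counts, and En1 had 8 and 28. Snai2, also of neural crest and named in the same way, had 4 and 8.

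Of the proneural and Notch genes, 6 of 16 had at least 1 CPM in both libraries, with a median of 0.26 RPKM. That was 37.5%, beside 31.7% of all listed genes and 57.1% of protein-coding genes. Neurod1, a neuronal bHLH factor that acts after the neurogenins, had 100 counts in replicate 1 and 430 in replicate 2 (log2 ratio -2.22), although Neurog2 and Neurog1 had 3 counts or fewer in either library. Id1 and Id3, which bind bHLH partners and are targets of BMP signals, were the other well-counted genes beyond 2-fold, at 482 and 1971 counts (-2.15) and at 333 and 1866 (-2.60). Hes3 (1 and 25 counts) was also higher in replicate 2, and Dll3 (140 and 31) was higher in replicate 1, both named after their values were seen. Hes1, a Notch effector that is high in mESCs, had 25.8 and 15.4 RPKM.

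Among radial glia and progenitor genes, 7 of 10 had at least 1 CPM in both libraries, with a median of 3.30 RPKM. That was 70.0%, beside 31.7% of all listed genes and 57.1% of protein-coding genes. The proliferation genes Pcna (55.6 and 73.8 RPKM) and Mki67 (38.0 and 47.0) led the list. Beside Vim, the N-cadherin gene Cdh2 was higher in replicate 2, with 31 and 328 counts (log2 ratio -3.48), and Gfap, named after its values were seen, was higher in replicate 1 (60 and 16 counts). Fabp7, a marker of radial glia, had 0 counts and 1 count.

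Of the neuronal differentiation genes, 10 of 16 had at least 1 CPM in both libraries, with a median of 1.54 RPKM. That was 62.5%, near the 57.1% of protein-coding genes. Stmn2, a microtubule regulator, led with 46.3 and 42.3 RPKM and differed little between the libraries (0.01). Of the 13 genes averaging 10 or more counts, 5 were more than 2-fold higher in replicate 2, beside 7.14% of all such genes. These were Nefl, Nefm, Nefh, Ina and Sox4. Rbfox3 (64 and 14 counts), named after its values were seen, was the only 1 more than 2-fold higher in replicate 1, beside 14.2%. Other genes of this list, chosen after their values were seen, ranged widely. Mapt, which encodes the microtubule protein tau, had 3980 and 2404 counts, and its relative Map2 had 669 and 1116. Dcx, a marker of newborn neurons, had 0 and 2 counts, Gap43 had 4 and 4, and Snap25 had 5 and 8.

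Of the β-tubulin genes other than Tubb3, 5 of 7 had at least 1 CPM in both libraries, with a median of 31.7 RPKM. In the list of signals and repressors of neural fate, 12 of 16 did, with a median of 4.71 RPKM. These shares were 71.4% and 75.0%, beside 31.7% of all listed genes and 57.1% of protein-coding genes. Fgf4, which drives mESCs towards differentiation, had 168 and 121 RPKM. Rest, the repressor of neuronal genes outside neurons, had 63.5 and 92.3 RPKM, a log2 ratio of -0.66. Any effect of Rest on the neuronal genes was not tested. Fst, an antagonist of activin and BMP, had 66 and 222 counts (-1.86). Fgf5, an ectoderm marker of the study's RT-qPCR, had 9 and 20 counts, and it was named after its values were seen.

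**Figure D4:**
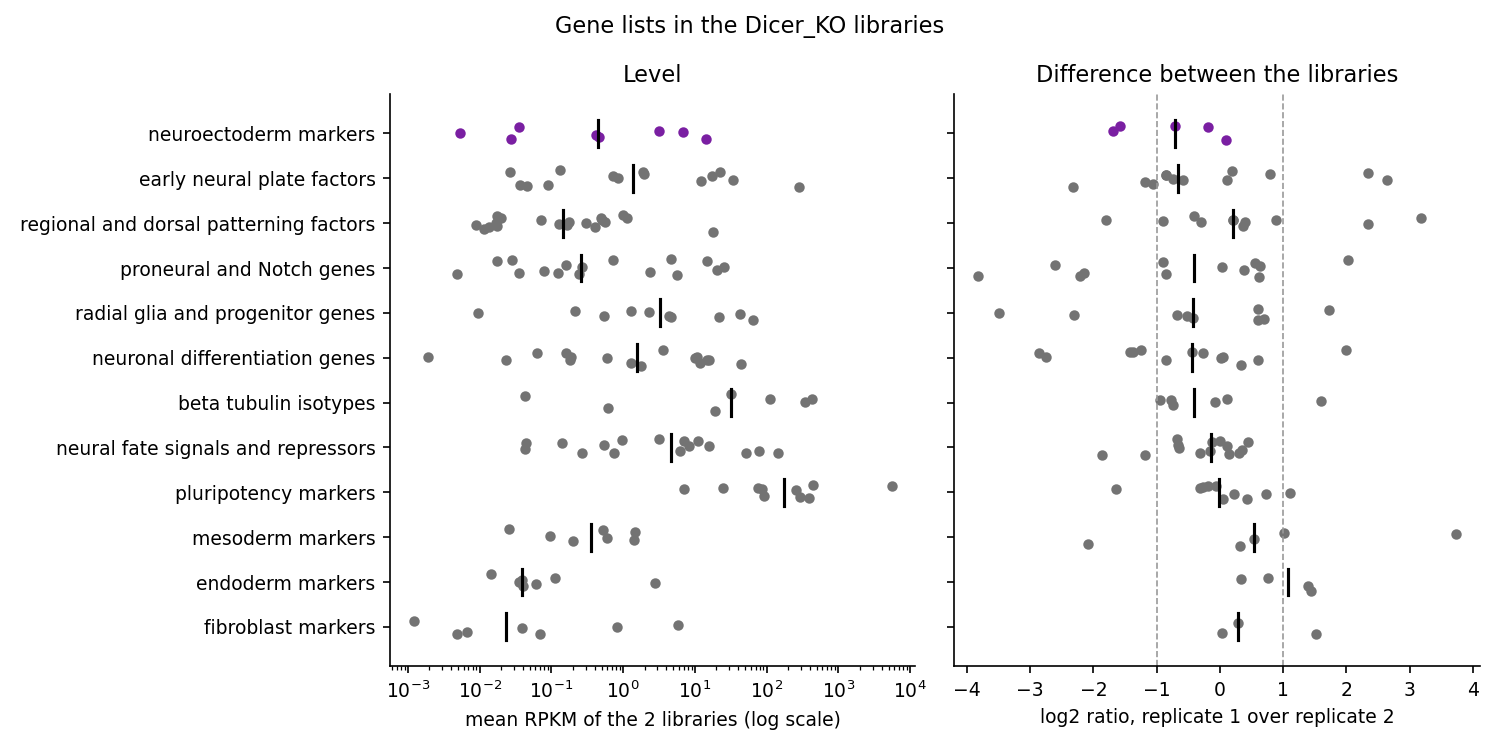
Mean RPKM of each gene (left, log scale) and log2 ratio of replicate 1 over replicate 2 (right, genes averaging 10 or more counts) for 12 gene lists, with the median of each list as a black bar; genes with 0 counts in both libraries are not drawn on the left. The neuroectoderm markers (purple) span 0.0054 to 14.2 RPKM, the pluripotency markers have a median of 174.7 RPKM, and the 5 ratios of the neuroectoderm markers have a median of -0.70.

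Because most microRNAs need DICER for their maturation, the 3' UTRs of the markers were searched for matches to the seeds of the 2 microRNAs that the study probed. miR-295-3p belongs to the family that dominates mESCs, and miR-16-5p is found in most cells. Their mature sequences from RefSeq (GRCm38.p6) are shown with the seed, bases 2 to 8, in capitals, since a seed match is what guides a microRNA to its mRNA.
miR-295-3p: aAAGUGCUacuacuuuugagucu
miR-16-5p: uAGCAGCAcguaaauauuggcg
The match in an mRNA is AGCACTT for miR-295-3p and TGCTGCT for miR-16-5p, read on the strand of the transcript. In the longest annotated 3' UTR of each marker, Pax6 and Zic1 had 1 match each for miR-295-3p, and Zic1 had 1 for miR-16-5p. The sites are shown with the match in capitals.
Pax6, miR-295-3p: tggcggttagaAGCACTTcactttgtaac
Zic1, miR-295-3p: atagttttaacAGCACTTttgtgattttc
Zic1, miR-16-5p: tttgcaagctaTGCTGCTtcggagaagtt
Of 20689 genes with an annotated 3' UTR, 14.8% had a match for miR-295-3p and 20.4% for miR-16-5p, beside 2 and 1 of the 8 markers. Tubb3 and Sox11 had 0 matches to either seed, Sox11 in a 3' UTR of 6957 nt and Tubb3 in one of 391 nt. Both libraries are labelled Dicer knockout, no microRNA was measured in them here, and an effect of microRNAs was not tested. These are matches of letters, and binding was not measured.

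Most start regions of the markers were rich in CpG. The RefSeq table of promoters (300 bases around each start) held 8 for 7 of the markers. With a GC content of at least 50% and an observed over expected CpG ratio of at least 0.6, 6 of the 8 were CpG-rich, against 33.5% of 32851 promoters. The ratio was highest at Sox1 (1.07) and at the second start of Pax6 (1.00). That Pax6 start has a GC content of 46.3% and so is not CpG-rich by this rule, while the first start of Pax6 had a ratio of 0.70. The ratio was 0.97 at Zic1, 0.82 at Sox11, 0.77 at Tubb3, 0.70 at Nes and 0.57 at Neurog2. The ratio did not follow the level of the markers, since Zic1 with 8 and 5 counts was above Nes with 1771 and 1852, although Neurog2, under the floor of 3 counts, had the lowest ratio.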

How the data were processed

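PolyA RNA of 2 Dicer_KO mESC libraries was sequenced on a reverse-stranded protocol. After trimming with Trimmomatic, the authors aligned reads to mm10 with STAR (2.4.2a per the labels), keeping reads with many hits. The deposited values are raw counts per Ensembl gene from featureCounts (1.4.5-p1), which ignored reads on overlapping regions. The strand setting of the counting and its treatment of multiple hits are not given in the sources used here.

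CPM used total counts, with 95% Wilson intervals. RPKM used the summed exon length of each gene in GENCODE M21 (GRCm38), which lacks 1081 of the 43629 genes. Log2 ratios used TMM factors of edgeR 4.0.16 and a pseudocount of 1, for genes averaging 10 or more counts, with exact binomial intervals. Intervals, and the floor of 3 counts, cover counting error only. SDs over 2 libraries may hold technical spread. Since both libraries form 1 group, no test was made. The ratio step was run on simulated data in which few genes changed, as many up as down. The libraries here differ more widely and unevenly, so that run does not check the scaling under such a lean. Alternatives were DESeq2 1.42.0 size factors, total and raw counts, and other thresholds, filters, pseudocounts and lengths. R 4.3.3, Python 3.11.15 and scipy 1.17.1 were used.

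The markers and lists were chosen with earlier results of these data known. Named genes were the 8 markers, Dicer1, genes of their families, genes overlapping them and, in each of the other 11 lists, the 2 with the highest mean RPKM and those beyond 2-fold that averaged 100 or more counts. All 141 list genes were found by symbol. Some genes that this rule names are not reported here.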

Additional observations from a re-analysis of the deposited data

How the results depend on the processing

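No paired analysis was possible because the 2 libraries form a single group. Markers with at least 1 CPM in both libraries numbered 5, and 5 as well at 0.5 CPM, at 2 CPM, with TMM library sizes and in either library alone, but 3 at 1 RPKM. Markers beyond 2-fold numbered 2, and 2 with each other scaling, with a pseudocount of 0.1 and at a minimum of 100 counts. There were 4 with no filter on low counts, where Pax3 and Neurog2 enter from 18 counts or fewer, and 0 at 4-fold. Neural list genes at 1 CPM numbered 55, and 56 with TMM library sizes or in replicate 2 alone. There were 64 at 0.5 CPM or in replicate 1 alone, 49 at 2 CPM and 41 at 1 RPKM. Without the genes of chromosome 15, a setting chosen after seeing the data, there were 53. Neural list genes beyond 2-fold numbered 25, and 24 without chromosome 15. There were 36 with no filter on low counts, 15 at a minimum of 100 counts, 48 at 1.5-fold and 15 at 4-fold. Scaling by total counts moved the median log2 ratio of all genes from 0.02 to 0.14 and left 24 neural list genes beyond 2-fold, 8 higher in replicate 1 and 16 higher in replicate 2. Of 28 log2 ratios of single markers under another scaling or pseudocount, 0 changed sign and 2 left the counting interval, both of Nes, whose ratio went from -0.19 to -0.07 with total counts and to -0.06 with raw counts. By the RPKM of replicate 2 alone 5 of the 8 markers changed place in the order, and by the mean CPM of both libraries 4 did. The depth limits Pax3, Zic1 and Neurog2, whose counts do not carry a ratio beyond a bound.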

Other observations

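Markers of the other germ layers were read in the same way. Of 8 mesoderm markers, 2 had at least 1 CPM in both libraries, beside 31.7% of all listed genes and 57.1% of protein-coding genes, with a median of 0.36 RPKM. Hand1, a factor of mesoderm and trophoblast, had 229 counts in replicate 1 and 15 in replicate 2 (log2 ratio 3.73), and Eomes, a factor of both lineages too, had 334 and 151 (1.02). Kdr, the VEGF receptor of blood vessel progenitors, went the other way, with 90 and 353 counts (-2.08). The early mesoderm factor T had 3 and 2 counts. Of 8 endoderm markers, only Gata4 reached 1 CPM in both libraries, with 586 and 318 counts (0.76), and the median was 0.039 RPKM. Dab2, which lies on chromosome 15, had 52 and 17 counts. Of the 4 endoderm markers averaging 10 or more counts, 2 were more than 2-fold higher in replicate 1 and 0 in replicate 2, and of the 5 such mesoderm markers 2 and 1, where over all 17788 such genes 14.2% were higher in replicate 1 and 7.14% in replicate 2.

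Among the pluripotency markers, Dppa5a was the most abundant, at 7741 RPKM in replicate 1 and 3297 in replicate 2 (log2 ratio 1.11). Lin28a, an RNA-binding protein that blocks let-7 maturation and is higher in primed than in naive cells, had 603 and 1733 counts (-1.64). Its ratio lay beside those of Tubb3 (-1.68) and Sox11 (-1.58). Of 8 fibroblast markers, 2 had at least 1 CPM in both libraries, Thy1 (823 and 621 counts) and Pdgfrb (285 and 91 counts, 1.52), with a median of 0.023 RPKM. That was 25.0%, beside 31.7% of all listed genes and 57.1% of protein-coding genes. The collagen genes that define fibroblasts were under 1 CPM, with 20 and 18 counts of Col1a1, 6 and 1 of Col1a2 and 1 and 0 of Col3a1. The summed level of the list was 27.2 CPM in replicate 1 and 18.1 in replicate 2, of which Thy1 alone had 19.7 and 14.9. Dcn, named after its values were seen, went the other way, with 0 counts in replicate 1 and 19 in replicate 2. The marker Postn was at 0 in both.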
